A study of Mus musculus with 6 samples.

Results

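The peptide hormone genes of enteroendocrine cells were examined in epithelial cells of the large intestine of mice lacking Hdac3 in those cells. The 7 genes, out of 19533 measured, are Insl5, Pyy, Ppy, Sst, Gcg, Cck and Nts. They were chosen by their signals in the same contrast that is described below, HDAC3ΔIEC against HDAC3FF. All 7 have 1 probe set each that names a single gene. The arrays came from 3 germ-free HDAC3ΔIEC mice, in which Hdac3 is knocked out in intestinal epithelial cells, and from 3 germ-free control mice with floxed Hdac3 (HDAC3FF). Both groups were C57BL/6 and carried no microbiota, and live EpCAM-positive cells were profiled on 1 Affymetrix array per mouse. The labels do not name the Cre line that drives the deletion, nor the age or sex of the mice.

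Enteroendocrine cells are rare, scattered cells of the gut epithelium that store peptide hormones in dense granules and release them on contact with nutrients, microbial products or bile acids. Each hormone is cut from a longer precursor by prohormone convertases. L cells of the colon make peptide YY and the glucagon-like peptides, which are cut from proglucagon, and in the colon also insulin-like peptide 5. Somatostatin marks D cells, and cholecystokinin, made by I cells, and neurotensin are known mainly from the small intestine. HDAC3 is a histone deacetylase that works within NCoR and SMRT corepressor complexes.

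All 7 hormone genes read higher in HDAC3ΔIEC than in HDAC3FF cells, and for each of them every HDAC3ΔIEC array lay above every HDAC3FF array. Over all 19533 genes, the groups lay apart in that direction for 8.45%, in the lower direction for 7.7% and in either direction for 16.2%. Past limma's threshold (adjusted p under 0.05) were 3 of the 7, Ppy, Insl5 and Pyy, against 0.701% of all genes in either direction and 0.369% higher. As the genes were selected on this contrast, their differences are given as a description, and nothing is read from these counts. The number past the threshold was 6 without HDAC3FF replicate 3, where 430 of all genes passed, and 1 (Ppy) without HDAC3FF replicate 1 or HDAC3ΔIEC replicate 2, where 13 and 14 passed. The median log2 difference of the 7 was 2.40, against 0.01 for all genes. It was 2.63 without HDAC3FF replicate 3, 2.02 without HDAC3FF replicate 2 and 2.87 without HDAC3ΔIEC replicate 2. Summed on the linear scale, the 7 signals came to between 6310 and 9181 on the HDAC3ΔIEC arrays and between 1087 and 2068 on the HDAC3FF arrays. In whole-population RNA such as this, more hormone cells and more hormone RNA per cell cannot be told apart.

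The promoter stretches of the 3 genes past the threshold and of Sst are shown because these genes had high values in the same group, and because Ppy and Pyy are next to each other on chromosome 11. RefSeq (GRCm38.p6) holds windows for all 7 genes, 9 windows in all, with 2 alternative starts each for Insl5 and Pyy. The 250 bases before the annotated start are printed 5′ to 3′. For Pyy the start farther upstream and for Insl5 the one farther downstream was taken. Capitals mark matches, on either strand, to the 6 motifs named in the paragraph that follows.
Ppy (chr11:102101320-102101569, minus strand): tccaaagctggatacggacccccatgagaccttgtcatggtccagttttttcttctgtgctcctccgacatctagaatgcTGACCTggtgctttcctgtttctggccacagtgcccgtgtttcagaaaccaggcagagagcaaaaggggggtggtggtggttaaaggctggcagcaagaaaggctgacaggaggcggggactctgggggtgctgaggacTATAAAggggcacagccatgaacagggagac
Pyy (chr11:102107833-102108082, minus strand): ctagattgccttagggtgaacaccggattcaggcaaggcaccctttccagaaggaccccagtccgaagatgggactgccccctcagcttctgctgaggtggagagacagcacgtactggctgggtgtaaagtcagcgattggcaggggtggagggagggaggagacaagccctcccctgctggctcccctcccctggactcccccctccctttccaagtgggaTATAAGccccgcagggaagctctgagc
Insl5 (chr4:103026729-103026978, minus strand): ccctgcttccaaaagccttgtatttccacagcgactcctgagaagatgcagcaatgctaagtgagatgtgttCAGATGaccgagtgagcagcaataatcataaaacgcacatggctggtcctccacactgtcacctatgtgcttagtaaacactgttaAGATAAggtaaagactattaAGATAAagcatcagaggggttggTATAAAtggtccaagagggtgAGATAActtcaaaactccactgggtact
Sst (chr16:23890845-23891094, minus strand): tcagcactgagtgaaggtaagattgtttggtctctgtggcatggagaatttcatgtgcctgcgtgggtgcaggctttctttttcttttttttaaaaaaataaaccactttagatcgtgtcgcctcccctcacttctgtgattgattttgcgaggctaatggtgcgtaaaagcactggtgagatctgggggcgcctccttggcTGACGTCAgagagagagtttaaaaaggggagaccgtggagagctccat

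A TATA box spelled TATAAA lay at position -31 from the start in Ppy and at -49 in the Insl5 window shown. Pyy had the variant TATAAG at -27, or at -83 from its other start. The Insl5 window not shown held TATAAA only on the opposite strand, at -88, and neither the GATA motif nor the E box named below. On either strand the first spelling was found for 3 of the 7 genes (Gcg, Insl5 and Ppy). That was 4 of the 9 windows of the 7 genes, against 12.4% of all 32851 windows. The variant was found for Pyy, in 2 of the 9, against 6.65% of windows. The palindromic full cAMP response element TGACGTCA was found for Sst, at -48, in 1 of the 9, against 1.55% of windows. The GATA motif AGATAA occurred for Insl5, Cck and Nts (3 of the 9, against 9.99% of windows), and the Insl5 window shown held 3 copies. The NEUROD-type E box CAGATG occurred for Insl5, Gcg and Cck (3 of the 9, against 14.4% of windows). The core motif of nuclear receptor sites, AGGTCA, occurred for Ppy, on the opposite strand, in 1 of the 9, and in 4607 of the 32851 windows. None of these 6 motifs was common to all 7 genes. Such matches describe the letters in these windows and do not show binding.

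Hdac3, the targeted gene, read 6.58, 6.22 and 6.00 on the HDAC3ΔIEC arrays, against 6.96, 7.36 and 7.04 on the HDAC3FF arrays (log2 signals throughout). The groups lay apart, and the difference was -0.86 ± 0.17 (SE), short of the threshold (limma adjusted p = 0.0937). The median signal of an array over all genes was 5.30 to 5.35. The epithelial markers Epcam (10.85, 10.96 and 10.75 in HDAC3ΔIEC, against 10.88, 10.80 and 11.06 in HDAC3FF) and Krt8 were high in both groups. Among the arrays, HDAC3FF replicate 3 had the lowest weight when limma estimated array quality, 0.475, followed by HDAC3ΔIEC replicate 3 at 0.654. The other arrays had weights of 1.01 to 1.63. Differences without HDAC3FF replicate 3 are given for some genes only, and the rest are given with all arrays.

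Ppy and Pyy encode pancreatic polypeptide and peptide YY, 2 hormones of the neuropeptide Y family. Pancreatic polypeptide is known mainly from the endocrine pancreas, and peptide YY from colonic L cells. Peptide YY slows gut transit and curbs appetite. Ppy read 9.45, 10.03 and 9.57 in HDAC3ΔIEC cells, against 6.29, 6.59 and 6.94 in HDAC3FF cells. The lowest HDAC3ΔIEC array was 2.51 log2 units above the highest HDAC3FF array, the widest gap of the 7 genes. The difference was 3.07 ± 0.21 (SE), 8.42-fold on the linear scale, with SDs of 0.31 and 0.33 in HDAC3ΔIEC and HDAC3FF (n = 3 each).

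Pyy read 11.41, 11.27 and 11.40 in HDAC3ΔIEC cells, against 8.93, 8.52 and 9.95 in HDAC3FF cells. The HDAC3ΔIEC mice were nearly alike (SD 0.08, n = 3), whereas the HDAC3FF mice spread more widely (SD 0.74, n = 3), with replicate 3 the highest of them. The difference was 2.22 ± 0.33 (SE), or 4.68-fold. With 1 array left out, the difference ran from 1.92 without HDAC3FF replicate 2 to 2.63 without HDAC3FF replicate 3. The brightest gene of each array read between 13.40 and 13.55, above every Pyy signal.

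Insl5 encodes insulin-like peptide 5, a relaxin family hormone of colonic L cells that acts on the receptor RXFP4. It read 8.86, 9.55 and 9.01 in HDAC3ΔIEC cells, against 6.15, 5.53 and 6.53 in HDAC3FF cells. The groups were 2.34 log2 units apart at their nearest arrays. The difference was 3.07 ± 0.28 (SE), 8.41-fold, with SDs of 0.36 and 0.51 in HDAC3ΔIEC and HDAC3FF (n = 3 each).

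Gcg encodes proglucagon, the source of GLP-1, GLP-2 and oxyntomodulin in the gut. It read 9.80, 9.66 and 10.30 in HDAC3ΔIEC cells, against 6.997, 8.25 and 8.79 in HDAC3FF cells. The HDAC3FF arrays differed among themselves by more than the 0.87 log2 units that lay between the groups. The difference was 1.91 ± 0.43 (SE), or 3.75-fold, and ran from 1.40 without HDAC3FF replicate 1 to 2.30 without HDAC3FF replicate 3.

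**Figure D1:**
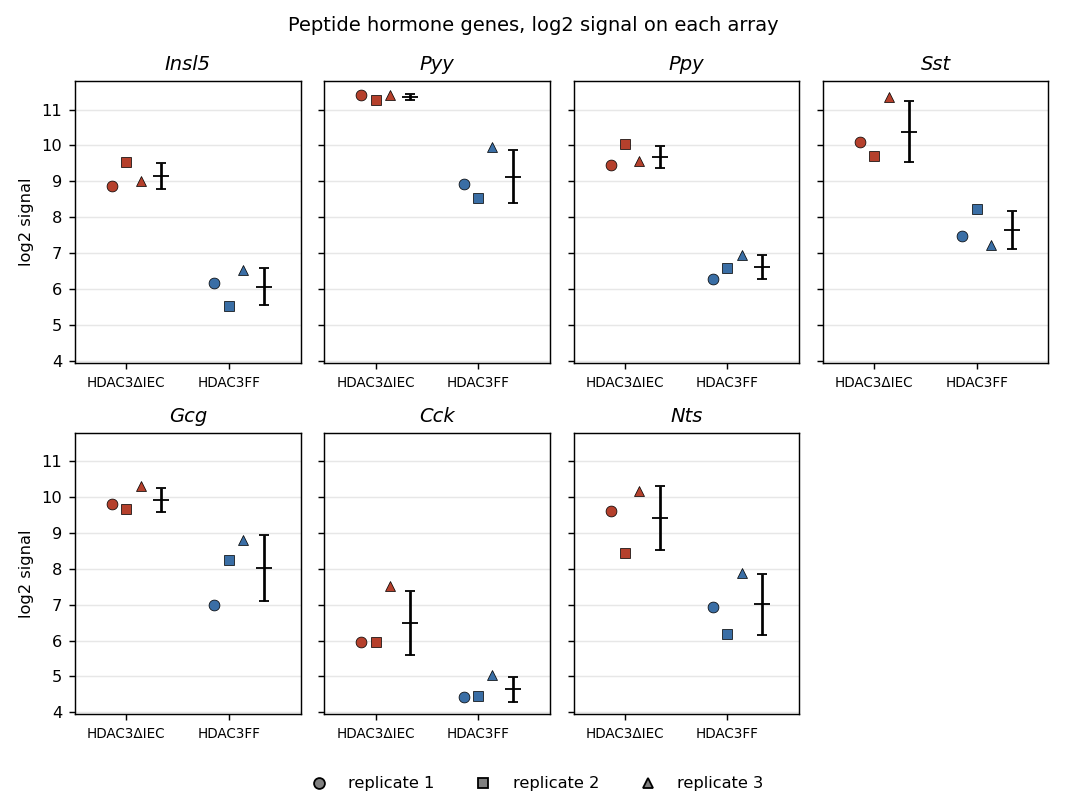
Log2 signal of the 7 hormone genes on each array, HDAC3ΔIEC left and HDAC3FF right. Symbols are single arrays, and the bar beside them is the mean with its SD (n = 3 each). In every panel the 3 HDAC3ΔIEC symbols lie above the 3 HDAC3FF symbols, with the narrowest gap for Nts at 0.54.

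Nts encodes neurotensin, a gut and brain peptide released after fat ingestion. It read 9.62, 8.44 and 10.17 in HDAC3ΔIEC cells, against 6.94, 6.18 and 7.89 in HDAC3FF cells. Both groups were widely spread (SD 0.89 and 0.86 in HDAC3ΔIEC and HDAC3FF, n = 3 each), and only 0.54 log2 units separated them at their nearest arrays. The difference was 2.40 ± 0.53 (SE), or 5.30-fold.

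Sst encodes somatostatin, which restrains the release of most other gut hormones. It read 10.10, 9.70 and 11.35 in HDAC3ΔIEC cells, against 7.49, 8.22 and 7.22 in HDAC3FF cells. HDAC3ΔIEC replicate 3 stood above its group and HDAC3FF replicate 2 above the other controls. The difference was 2.74 ± 0.44 (SE), or 6.69-fold, and was 2.26 without HDAC3ΔIEC replicate 3.

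Cck encodes cholecystokinin, which contracts the gall bladder and stimulates pancreatic enzyme release. It read 5.97, 5.95 and 7.52 in HDAC3ΔIEC cells, against 4.43, 4.46 and 5.04 in HDAC3FF cells. The HDAC3FF values lay below the median signal of the arrays, where a probe set may report background, and the deposited values carry no detection call. The difference was 1.84 ± 0.42 (SE), or 3.57-fold, and 1.32 without HDAC3ΔIEC replicate 3, the array with the high value.

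Ordered by difference, the genes ran Ppy, Insl5, Sst, Nts, Pyy, Gcg and Cck, and the ranges of 1 SE of each neighbouring pair overlapped. With 1 array left out in turn, every one of the 7 kept a positive difference, which follows from groups that do not overlap. Ppy passed limma's threshold in 6 of these 6 fits, Insl5 in 4, Pyy, Sst, Gcg and Nts in 1 each, the fit without HDAC3FF replicate 3, and Cck in 0. Across all genes those fits called between 13 and 430 genes, so a gene's call depended on which arrays entered.

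**Figure D2:**
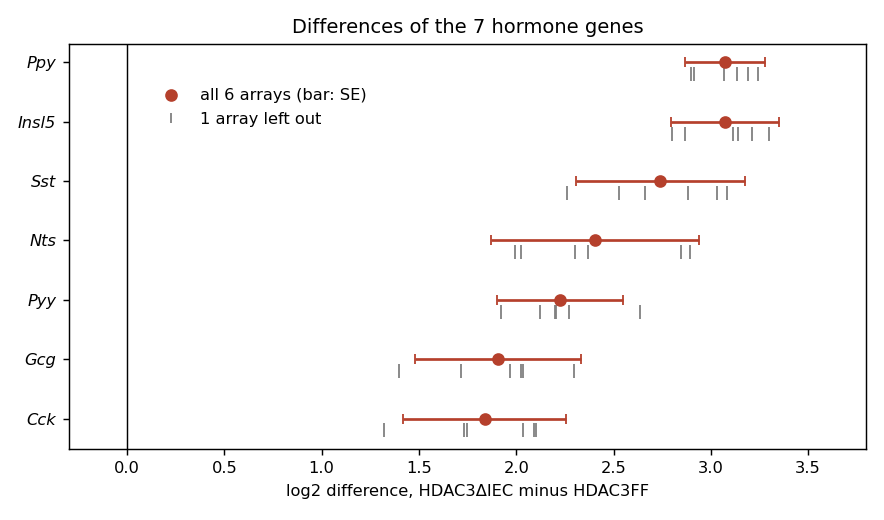
Log2 difference (HDAC3ΔIEC minus HDAC3FF) of each hormone gene, as a point with its SE from all 6 arrays, and as grey ticks with 1 array left out at a time. Ppy and Insl5 have the largest differences at 3.07, and the ticks of Cck reach down to 1.32.

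The 7 genes did not share 1 order of arrays within a genotype. Insl5 and Ppy were highest in HDAC3ΔIEC replicate 2, whereas Sst, Gcg, Cck and Nts were highest in replicate 3 and lowest in replicate 2. Pyy was nearly level across the 3. Among the HDAC3FF arrays, 6 of the 7 genes were highest in replicate 3, the exception being Sst, which was lowest there. Averaged over the 7 genes, HDAC3ΔIEC replicate 3 lay 0.42 above its group mean, and HDAC3FF replicate 3 lay 0.46 above its own.

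**Figure D3:**
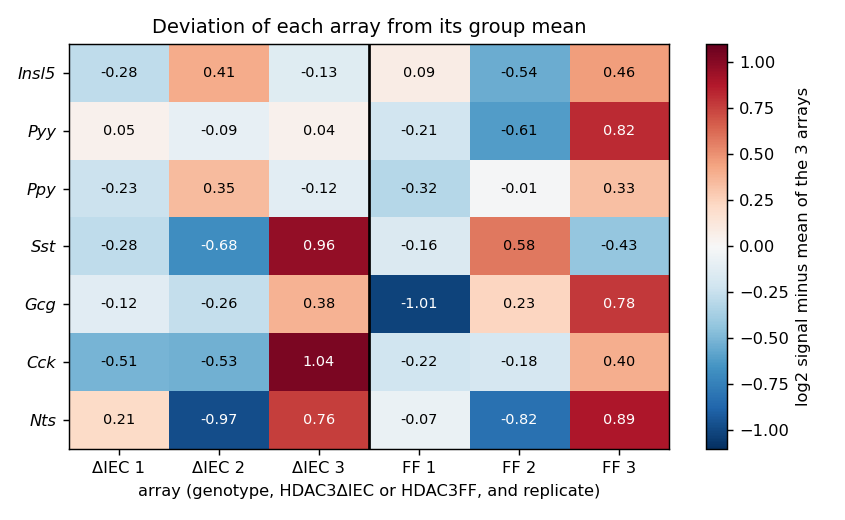
Each cell gives the log2 signal of a hormone gene on 1 array minus the mean of the 3 arrays of its genotype (HDAC3ΔIEC left of the line, HDAC3FF right of it). Red is above and blue below the group mean. HDAC3FF replicate 3 is above its mean for every gene but Sst.

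Ppy and Pyy are adjacent measured genes on chromosome 11, and the genes around each hormone gene were read to see whether neighbours differed too. The 2 nearest measured genes on either side gave 24 distinct genes that are not hormone genes of the 7. None passed limma's threshold, 3 had an unadjusted p under 0.05, and their log2 differences ran from -0.76 to 0.27 with a median of 0.02. Of all 19533 genes, 2192 had an unadjusted p under 0.05. The counts here and for the lists below are to be read beside that share. Beside the Ppy and Pyy pair, the scaffold gene Mpp2 had a difference of 0.02 ± 0.09 (SE) on one side, and Nags, which encodes N-acetylglutamate synthase, had 0.27 ± 0.18 on the other. Farther out were Cd300lg at 0.04 ± 0.08 and Tmem101 at 0.16 ± 0.08.

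Around Gcg on chromosome 2 are Dpp4, whose product inactivates GLP-1 and trims peptide YY, and Fap, a related peptidase. Dpp4 read 7.94, 7.36 and 6.31 in HDAC3ΔIEC, against 7.81, 7.95 and 7.98 in HDAC3FF, and did not pass (-0.71 ± 0.36, SE, limma adjusted p = 0.552). Fap had -0.76 ± 0.17 with groups apart and did not pass either (limma adjusted p = 0.125). Next but one to Cck on chromosome 9 is Vipr1, the receptor of vasoactive intestinal peptide, at -0.48 ± 0.12 (limma adjusted p = 0.139). Mier1, next but one to Insl5 on chromosome 4, was at -0.36 ± 0.09 (limma adjusted p = 0.158). The remaining neighbours of Gcg (Slc4a10 and Ifih1), Sst (Masp1, Rtp4, Rtp2 and Bcl6), Cck (Ulk4, Trak1 and Lyzl4), Insl5 (Sgip1, Tctex1d1 and Wdr78) and Nts (1700017N19Rik, Mgat4c, Rassf9 and Alx1) did not pass.

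Other gut hormone and transmitter genes were spread on both sides of 0. Of 19 measured, none passed limma's threshold, 7 had an unadjusted p under 0.05 (3 higher and 4 lower), and the median log2 difference was -0.03. Iapp, the gene of amylin, read 6.56, 5.89 and 8.17 in HDAC3ΔIEC, against 4.75, 4.31 and 4.44 in HDAC3FF. Its groups lay apart, and its difference of 2.37 ± 0.52 (SE) did not pass (limma adjusted p = 0.114). HDAC3ΔIEC replicate 3 was the high array. The HDAC3FF values of Iapp lay below the array medians, where a probe set may report background. Calcb, the gene of the beta form of calcitonin gene-related peptide, ran the other way, with 5.58, 5.01 and 5.29 in HDAC3ΔIEC, against 7.397, 6.58 and 8.36 in HDAC3FF (-2.15 ± 0.41, limma adjusted p = 0.0793).

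Ghrl, the ghrelin gene, and Tph1, which makes serotonin in enterochromaffin cells, also had groups apart, and were picked after their values were seen. Ghrl read 7.77, 8.81 and 8.38 in HDAC3ΔIEC, against 7.06, 6.67 and 7.72 in HDAC3FF (1.17 ± 0.33, SE, limma adjusted p = 0.208). Tph1 read 9.001, 8.86 and 9.28 in HDAC3ΔIEC, against 8.09, 7.58 and 8.73 in HDAC3FF (0.91 ± 0.27, limma adjusted p = 0.246). Without HDAC3FF replicate 3, Tph1 and Calcb passed, at 1.21 and -1.69. Gip and Gast, the genes of the incretin GIP and of gastrin, lay close to or under the array medians in both groups, with differences of 0.06 ± 0.11 and -0.03 ± 0.09.

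**Figure D4:**
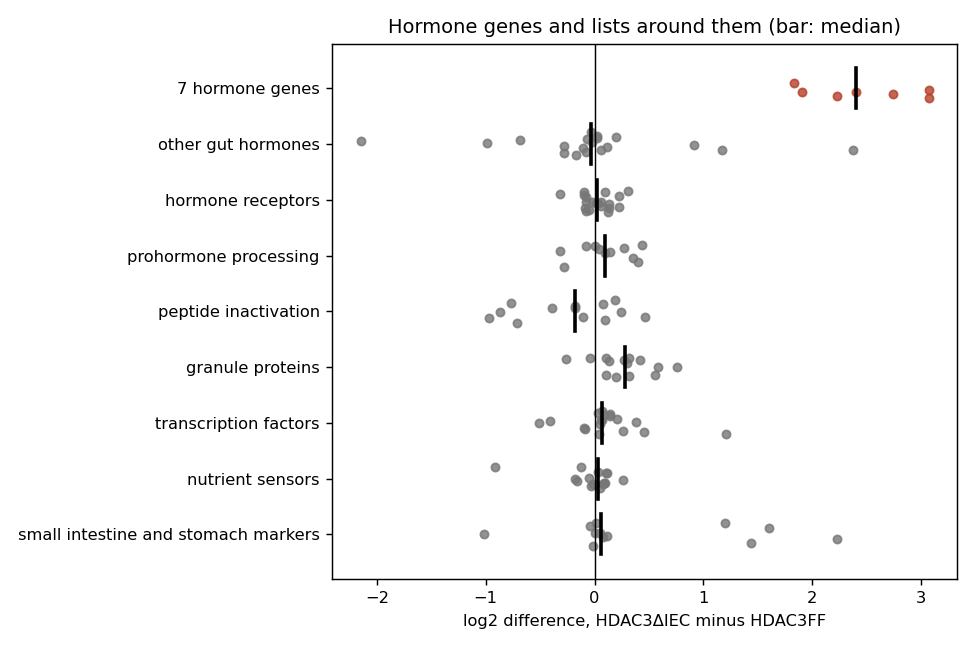
Log2 difference (HDAC3ΔIEC minus HDAC3FF) of every measured gene in the 7 hormone genes (red) and in 8 lists around them (grey), with the median as a black bar. The 7 hormone genes, which were selected on this contrast, lie between 1.84 and 3.07. The medians of the 8 lists lie between -0.17 and 0.28, and single genes of those lists, Iapp and Fabp6, reach 2.37 and 2.23.

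The enzymes that cut and finish the precursors had differences between -0.32 and 0.43. Of 11 measured prohormone processing genes, none passed limma's threshold, 5 had an unadjusted p under 0.05 (4 higher, 1 lower), and the median was 0.09. Pcsk1, prohormone convertase 1, which cuts proglucagon to GLP-1, read 6.01, 5.95 and 6.06 in HDAC3ΔIEC, against 6.19, 6.33 and 6.45 in HDAC3FF (-0.32 ± 0.10, SE, limma adjusted p = 0.246). Pcsk1n, whose product proSAAS inhibits that convertase, read 6.85, 7.06 and 7.04 in HDAC3ΔIEC, against 6.60, 6.27 and 6.78 in HDAC3FF (0.43 ± 0.14, limma adjusted p = 0.292). Both had groups apart, in opposite directions.

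Peptidases of the epithelium that inactivate peptides gave a median of -0.17 over 13 measured genes. None passed limma's threshold, and 4 had an unadjusted p under 0.05 (1 higher, 3 lower). Ace, the angiotensin converting enzyme, read 5.64, 5.29 and 5.08 in HDAC3ΔIEC, against 6.04, 6.20 and 6.36 in HDAC3FF (-0.87 ± 0.16, SE, limma adjusted p = 0.0751). Mep1a, a meprin subunit of the brush border, had -0.97 ± 0.19 (limma adjusted p = 0.0818).

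Receptors for the 7 hormones were near the dim end of the arrays. Of 20 measured, 18 had a mean signal under the median of all genes, and none passed limma's threshold. An unadjusted p under 0.05 was reached by 3 (2 higher, 1 lower). The lower one was a somatostatin receptor gene, Sstr2 (-0.32 ± 0.12, SE, limma adjusted p = 0.384). The smallest p belonged to another somatostatin receptor gene, Sstr5 (0.30 ± 0.10, SE, limma adjusted p = 0.272), and to Cckar, a cholecystokinin receptor gene (0.23 ± 0.08, limma adjusted p = 0.346). Rxfp4, the receptor gene for insulin-like peptide 5, had -0.05 ± 0.08.

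Secretory granule proteins and the transcription factors of the lineage had differences between -0.51 and 1.21. Of 14 granule genes, none passed, and the median was 0.28. An unadjusted p under 0.05 was reached by 4, all higher, and by 2192 of all 19533 genes. The smallest p belonged to Scg2, secretogranin 2 (0.55 ± 0.13, SE, limma adjusted p = 0.126), and to Rimbp2 (0.42 ± 0.17, limma adjusted p = 0.408). Chga, the gene of chromogranin A, had 0.75 ± 0.30 with all arrays (limma adjusted p = 0.415), and its groups overlapped. Without HDAC3FF replicate 3, Chga and Rimbp2 passed, at 1.09 and 0.61. Of 18 transcription factor genes, none passed, and 4 had an unadjusted p under 0.05 (2 higher, 2 lower). Neurod1, a driver of enteroendocrine differentiation, read 5.84, 5.58 and 6.66 in HDAC3ΔIEC, against 4.97, 4.38 and 5.10 in HDAC3FF (1.21 ± 0.30, limma adjusted p = 0.156), and Hhex, a somatostatin cell factor in the pancreas, had 0.46 ± 0.14 (limma adjusted p = 0.257). The HDAC3FF values of Neurod1 lay below the array medians, where a probe set may report background.

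Genes listed as nutrient sensors and transporters of enteroendocrine cells had a median of 0.03 over 15 measured genes. In whole-population RNA their signals, such as the bright one of Slc15a1, cannot be assigned to those cells. None passed limma's threshold, and 1 had an unadjusted p under 0.05, the short-chain fatty acid receptor gene Ffar2 (0.27 ± 0.11, SE, limma adjusted p = 0.422). Slc15a1, the peptide transporter gene, read 9.42, 9.66 and 7.74 in HDAC3ΔIEC, against 9.68, 10.03 and 9.88 in HDAC3FF (-0.92 ± 0.46, limma adjusted p = 0.537), with HDAC3ΔIEC replicate 3 the low array.

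Of 12 measured genes typical of the small intestine or stomach, none passed limma's threshold, and their median log2 difference was 0.06. An unadjusted p under 0.05 was reached by 5 (4 higher, 1 lower), and by 2192 of all 19533 genes. The groups lay apart and higher for 4, against 8.45% of all genes, and apart and lower for 1, Alpi, against 7.7%. Their summed linear signals ran from 6029 to 11151 in HDAC3ΔIEC and from 4177 to 5804 in HDAC3FF. Fabp6, the ileal bile acid binding protein gene, which had the highest mean signal of the list, read 12.51, 12.35 and 11.44 in HDAC3ΔIEC, against 10.35, 10.58 and 8.70 in HDAC3FF (2.23 ± 0.51, SE, limma adjusted p = 0.125). Apoa4, Sis, Apoa1 and Alpi, chosen after their values were seen, had 1.44 ± 0.33, 1.60 ± 0.51, 1.20 ± 0.39 and -1.01 ± 0.40. The lactase gene Lct, the gastric mucin gene Muc5ac and Gata4 differed by no more than 0.11. Their part in the hormone values was not tested. Among HDAC3ΔIEC arrays, replicate 3 had the lowest Fabp6, Apoa4, Sis, Apoa1 and Alpi, and the lowest Rbp2, which was nearly level. It had the highest Lct and Gata4 of that list. It also had the highest Sst, Gcg, Cck and Nts, whereas Insl5 and Ppy were highest in replicate 2 and Pyy in replicate 1. Among HDAC3FF arrays, replicate 3 had the lowest Fabp6 and Sis and the highest Apoa4, Apoa1, Alpi, Rbp2, Gata4 and Muc5ac. It had the highest signal for 6 of the 7 hormone genes. Not every gene of the list is named here, and these orders rest on 3 arrays per genotype. Those of Lct, Muc5ac and Gata4 rest on small margins, and Lct and Muc5ac were dim in both groups.

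**Figure D5:**
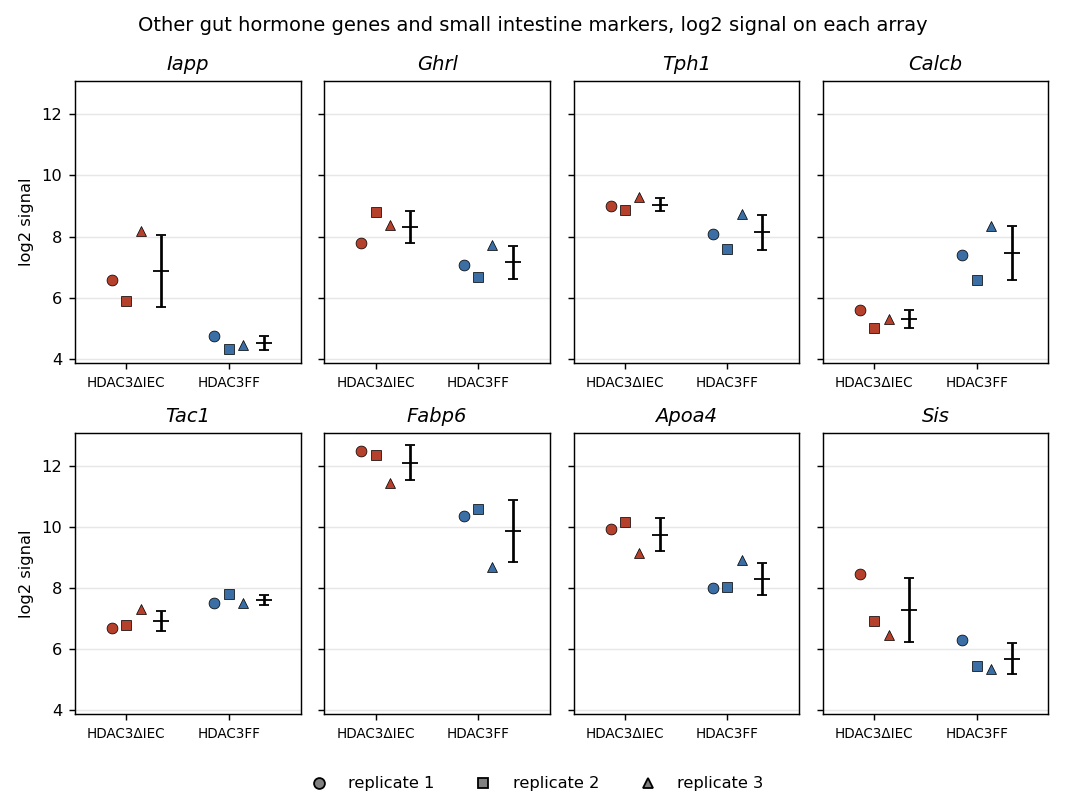
Log2 signal of 5 other gut hormone or transmitter genes and 3 small intestine markers on each array, HDAC3ΔIEC left and HDAC3FF right, with the mean and SD beside the symbols (n = 3 each). Iapp, Ghrl, Tph1, Fabp6, Apoa4 and Sis lie higher on every HDAC3ΔIEC array than on any HDAC3FF array, and Calcb and Tac1 lower.

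Of the pancreas list, 10 genes were measured, 9 of them with mean signals under the median of all genes. Ins2, an insulin gene, read between 4.91 and 5.19 in HDAC3ΔIEC and between 4.92 and 5.004 in HDAC3FF, under the median of every array. The brightest of that list, and the exception, was Cela1, an elastase gene, at 7.56, 7.54 and 7.498 in HDAC3ΔIEC, against 8.19, 8.59 and 7.94 in HDAC3FF (-0.70 ± 0.16, SE). The list's summed signals ran from 371 to 388 in HDAC3ΔIEC and from 448 to 571 in HDAC3FF. Of 15 genes of enteric neurons and glia, 14 had mean signals under the median of all genes, the brightest being Ret (0.60 ± 0.13), and their summed signals ran from 368 to 385 in HDAC3ΔIEC and from 339 to 375 in HDAC3FF. None of the genes of these lists passed limma's threshold, and 1 and 2 had an unadjusted p under 0.05.

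Epithelial marker genes summed to between 38222 and 40847 in HDAC3ΔIEC and between 31773 and 35756 in HDAC3FF. None of 10 passed the threshold, and 4 had an unadjusted p under 0.05, all of them higher. The groups lay apart and higher for 5 of the 10, against 8.45% of all genes, and apart and lower for 0, against 7.7%. The sums of the goblet, tuft, lymphocyte, and fibroblast and endothelial lists overlapped between groups, whereas the 12 myeloid genes summed to between 421 and 481 in HDAC3ΔIEC and between 529 and 608 in HDAC3FF. Of the myeloid genes 6 were positive and 6 negative, with a median of 0.003, and the widest differences were those of C1qa, Cd68 (0.51 ± 0.13, apart and higher) and Cd14 (-0.40 ± 0.16, overlapping). C1qb and C1qc, which encode the partner chains of C1qa, had 0.07 ± 0.10 and -0.11 ± 0.11. Of these lists the goblet gene Ccl9 and the myeloid gene C1qa passed, both lower (-1.01 ± 0.12 and -1.71 ± 0.19, SE, limma adjusted p = 0.0276 and 0.0204). The brightest genes of the epithelial, tuft, lymphocyte, and fibroblast and endothelial lists were Krt8, Sh2d6, Cd3e and Col1a1, whose differences were 0.26, 0.09, -0.22 and -0.06.

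Over the 6 arrays, the genes whose signals ran most like the mean of the 7 hormones were sought among 9759 other genes above the median signal. They were Pgk1, a glycolytic kinase gene, Slmap, Tc2n, Gnaq, which encodes a G protein alpha subunit, and Atf5, a transcription factor gene, with Pearson's r between 0.992 and 0.994. The 6 points fall into the 2 genotypes, so the value says little about the order of arrays within them. Their differences were 0.34, 0.21, 0.87, 0.37 and 0.42, and of them Tc2n passed limma's threshold (0.87 ± 0.10, SE, limma adjusted p = 0.0239).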

How the data were processed

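The deposited table holds 1 log2 signal per probe set for each array, judged by its range. The submitters' processing notes name Affymetrix Power Tools, with no version. How background was corrected, arrays normalized or probe sets filtered is not given in the sources used, no detection calls are included, and precision is limited by the number of arrays.

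Of 24939 probe sets, 21105 name 1 gene, 1254 several and 2580 none in the platform annotation. For each gene the brightest probe set by its 6-array mean was kept, which left 19533 genes. Symbols were checked through Entrez numbers against RefSeq (GRCm38.p6); 21022 probe sets matched and 0 symbols changed. The genotypes were compared with limma 3.58.1 under R 4.3.3 (HDAC3ΔIEC minus HDAC3FF, lmFit and eBayes, two-sided, no covariate), adjusted by Benjamini-Hochberg over all genes, with SE the moderated standard error. The fit was tested on simulated data. With 3 arrays against 3, an exact permutation test cannot go below p = 0.1, and none was used.

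The members and lists were chosen with earlier results of these data known. Named are the hormone genes, Hdac3, of each list the called genes or else the 2 with the smallest p (for markers the brightest), the 2 nearest measured genes on each side, and the 5 genes most like the hormones over the arrays. Others named, chosen after their values were seen, are Ghrl, Tph1, Gip, Gast, Chga, Rxfp4, Sstr2, Slc15a1, Epcam, Apoa4, Apoa1, Alpi, Rbp2, Sis, Cd68, Cd14, C1qb, C1qc, Lct, Muc5ac, Gata4, Ins2, and Tac1, Edn3, Penk and Sct. Alternatives were a replicate block, quantile normalization, centring, an intensity trend, a robust prior, array weights, filters on dim genes, the mean of all probe sets, adjustment over all probe sets, ordinary statistics, an adjusted p under 0.10 and omission of each array.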

Additional observations from a re-analysis of the deposited data

How the results depend on the processing

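Each of the 7 hormone genes had a positive difference under every alternative run. As they were selected on this contrast and their groups do not overlap, the sign could hardly change, and nothing is read from it. Several alternatives alter only the error estimate or the threshold and leave the differences as they were. The median log2 difference of the 7 ran from 2.02 to 2.87 with 1 array left out. The count of hormone genes past the threshold, 3 with all arrays, was 5 with array weights and 0 with ordinary unmoderated statistics, and ran from 1 to 6 with 1 array left out. Sst fell only just short with all arrays. It passed as well, for a count of 4, with centring, an intensity trend, either filter on dim genes or an adjusted p under 0.10. With adjustment over all probe sets Pyy no longer passed, and the count was 2. All genes called, 137 with all arrays (72 higher, 65 lower), came to 357 with array weights (171 and 186), 90 with adjustment over all probe sets (40 lower), 0 with ordinary statistics (0 higher, 0 lower; limma's unadjusted p was under 0.05 for 2192), 321 at an adjusted p under 0.10 (141 and 180), and 99 lower with the filter at the median. With 1 array left out they ran from 13 to 430, the higher ones from 11 to 196 and the lower ones from 2 to 234. Of the other gut hormone genes, 1 passed, Calcb, with an intensity trend, with array weights, with the filter at the median and at an adjusted p under 0.10, and 0 to 2 with 1 array left out. Of the peptide inactivation genes, 1 passed with an intensity trend (Ace), 2 with the filter at the median (Ace and Mep1a) and 2 at an adjusted p under 0.10. Of the granule genes 0 to 2 passed with 1 array left out. The causes were not tested.

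Replicate numbers are shared between the groups. Same-numbered arrays did not deviate together over all genes (correlations of -0.02, -0.07 and -0.20). With 3 arrays per group, these correlations cannot decide whether the numbers pair the mice. With the replicate block 12 genes were called (10 higher, 2 lower), among them Ppy and Nts of the 7. Signals near the dim end, such as Cck, Iapp and Neurod1 in HDAC3FF and most receptors, have no measure of background here.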

Other observations

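Some peptide genes outside the 7 read lower in HDAC3ΔIEC. Of the 19 other gut hormone and transmitter genes, 5 lay apart and lower, against 7.7% of all genes, and 3 lay apart and higher, against 8.45%. Tac1, the substance P precursor gene, read 6.70, 6.79 and 7.30 in HDAC3ΔIEC, against 7.51, 7.81 and 7.53 in HDAC3FF (-0.69 ± 0.17, SE, limma adjusted p = 0.162). Edn3, the gene of the peptide endothelin 3, read 7.28, 7.06 and 7.18 in HDAC3ΔIEC, against 7.65, 7.75 and 9.10 in HDAC3FF (-0.99 ± 0.36, limma adjusted p = 0.346), where HDAC3FF replicate 3 stood above the other controls. Penk, the proenkephalin gene, was dim in both groups (-0.28 ± 0.10, limma adjusted p = 0.318). Sct, the secretin gene, was bright in both, at 11.86, 11.70 and 11.84 in HDAC3ΔIEC, against 11.83, 11.93 and 12.47 in HDAC3FF, with groups that overlapped (-0.28 ± 0.17, limma adjusted p = 0.643).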
